A study of Mus musculus with 53 samples.

Results

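The genes that copy DNA and the genes that carry a cell through mitosis were followed across all 53 GeneChip arrays of the mouse synovial sarcoma model. The module was listed by symbol as 40 genes, 19 of DNA replication and 21 of mitosis. A probe set with a single gene symbol named 39 of them among the 17097 genes named on the array, and *Ccnb1* was not named by such a probe set. Each gene was read from the brightest of the 1 to 5 probe sets that carry its symbol, 70 probe sets in all. The members were listed with earlier results of these data known, so no test was run on a class as a whole. Values are log2 intensities as deposited, after intensities below 11.7 had been raised to that floor, and a difference of 1 on this scale is a 2-fold change. None of the 39 genes was at the floor in any array.

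The arrays fall into 9 groups. Mouse embryonic mesenchymal cells (eMCs), taken from the soft tissue of the limbs of BALB/c embryos late in gestation, were infected with an empty pMYs-IRES-GFP retrovirus (4 arrays) or with a pMYs retrovirus that carries human *SS18-SSX1*, the fusion gene of synovial sarcoma (4 arrays), and were profiled at 48 h. Cells infected with *SS18-SSX1* alone gave the SS tumors (12 arrays), and cells that received *SS18-SSX1* together with *miR-214* gave the SS214 tumors (13 arrays). Both kinds grew under the skin of nude mice, which lack T cells. The lines SS40 and SS64 carry the fusion gene and were transfected with *miR-214* or with a negative control (NC), with 4 arrays for each combination. The second line is called SS64 in the sample labels and SS60 in the text of the study, and the label was followed here. A mix of normal organs (brain, lung, heart, liver, kidney, gut, skin, muscle, ovary and marrow) gave the last 4 arrays and is labelled as mouse, although the methods of the study call it human. The eMCs and the lines were kept in different media with different amounts of serum, a tumor holds cells of its host, and each line is 1 line. The labels do not say that the 4 arrays of a group came from separate cultures, so p-values among the eMCs and the lines measure only the spread between arrays, which may be technical.

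DNA replication starts when *Cdc6* and *Cdt1* load the MCM helicase, made of the products of *Mcm2* to *Mcm7*, onto origins, and cyclin E with its kinase fires them. The GINS complex, of which *Gins1* encodes a part, joins the helicase, PCNA clamps the polymerase to the DNA, and ribonucleotide reductase (*Rrm1*, *Rrm2*), thymidylate synthase (*Tyms*) and thymidine kinase (*Tk1*) supply nucleotides. These genes are turned on before S phase by the activators *E2f1* and *E2f2* and are restrained by repressors such as *E2f8*. The mitotic genes follow later in the cycle, when the MuvB complex with B-Myb (*Mybl2*) and FoxM1 replaces the repressive DREAM complex at short promoter elements known as the CHR. Their products include the kinases *Cdk1*, *Plk1*, Aurora A and Aurora B, the cyclins that partner *Cdk1*, the spindle checkpoint proteins *Bub1*, BubR1 (*Bub1b*) and Mps1 (*Ttk*), spindle motors such as *Kif11* and *Cenpe*, topoisomerase II alpha (*Top2a*) and Ki-67 (*Mki67*), which coats mitotic chromosomes and is the usual histological marker of cycling cells. In culture most cells divide, and in a solid tumor or a normal tissue most cells do not.

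The promoters of the 2 classes held short sequences in different shares. RefSeq promoters (build GRCm38.p6, from 250 bases before the transcription start to 50 bases after it) matched 33 of the 40 members. E2F sites were searched as the word TTGGCGC and as its near forms, which were the word TTCCCGC as well as the word TTCGCGC and lastly the word TTGCCGC, on either strand. These letters stood in the promoters of 10 of 16 replication genes (62.5%) and of 3 of 17 mitosis genes (17.6%), against 10.9% of all 27025 genes with a promoter in the table. The letters of the CHR (TTTGAA on either strand) stood in 3 of 16 replication promoters (18.8%) and in 10 of 17 mitosis promoters (58.8%), against 20.2% of all genes. CCAAT boxes, which often lie close to a CHR, were found at 62.5% and 76.5%, against 41.1%. The E2F words can overlap each other, and CCAAT can share bases with an E2F word or with the CHR. Other genes of the same pathways, listed from general knowledge, split in the same way, with E2F letters in 14 of 20 other replication promoters (70.0%) and CHR letters in 18 of 23 other mitosis promoters (78.3%). The promoters of 4 genes described in detail later are printed 5′ to 3′, with the letters of E2F sites and of the CHR in capitals, because they show the letters of each kind alone and together.
*Mcm5*, chr8:75109259-75109558: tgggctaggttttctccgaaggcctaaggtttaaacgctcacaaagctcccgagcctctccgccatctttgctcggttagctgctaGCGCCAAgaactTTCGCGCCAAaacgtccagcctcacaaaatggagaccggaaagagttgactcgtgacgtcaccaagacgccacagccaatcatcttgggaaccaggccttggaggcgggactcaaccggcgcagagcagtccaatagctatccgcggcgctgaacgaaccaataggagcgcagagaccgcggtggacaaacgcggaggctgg
*Mcm2*, chr6:88898731-88899030: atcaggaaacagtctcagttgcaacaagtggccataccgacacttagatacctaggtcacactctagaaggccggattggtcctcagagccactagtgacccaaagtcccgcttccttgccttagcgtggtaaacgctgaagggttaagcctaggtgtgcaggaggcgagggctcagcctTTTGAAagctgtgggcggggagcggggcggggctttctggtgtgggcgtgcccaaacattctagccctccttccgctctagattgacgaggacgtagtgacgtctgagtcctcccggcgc
*Cdk1*, chr10:69352863-69353162: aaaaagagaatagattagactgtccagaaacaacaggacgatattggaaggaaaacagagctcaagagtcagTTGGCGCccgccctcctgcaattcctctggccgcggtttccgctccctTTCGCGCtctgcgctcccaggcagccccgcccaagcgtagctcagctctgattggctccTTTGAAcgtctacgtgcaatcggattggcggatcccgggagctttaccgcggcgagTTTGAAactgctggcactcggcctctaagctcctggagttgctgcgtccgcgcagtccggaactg
*Mki67*, chr7:135716330-135716629: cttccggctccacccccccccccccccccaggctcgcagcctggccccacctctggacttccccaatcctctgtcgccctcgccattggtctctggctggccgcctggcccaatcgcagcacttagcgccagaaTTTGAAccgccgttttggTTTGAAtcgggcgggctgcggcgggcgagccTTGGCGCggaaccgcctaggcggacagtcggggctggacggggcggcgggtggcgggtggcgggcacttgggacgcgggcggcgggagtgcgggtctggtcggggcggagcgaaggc
*Mcm5* lies on the plus strand and the other genes on the minus strand, and each is printed on its own strand. *Mcm5* holds E2F words at -164, -152 and -149 relative to the start, of which the last 2 overlap, and no CHR word. *Mcm2*, which codes for another subunit of the same helicase, holds no such E2F word and a CHR word at -70. *Cdk1* and *Mki67*, both of the mitosis class, hold both kinds, with CHR words at -71 and -15 in *Cdk1* and at -116 and -98 in *Mki67* and E2F words farther from the start in *Cdk1* (-178 and -130) but nearer to it in *Mki67* (-67). A match describes letters only.

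The tumor arrays differed in RNA quality and in the tissue they hold, and these values are given here because they move with several of the comparisons. For *Gapdh*, the signal of the 3′ control probe set over that of the 5′ one, in log2, rises when RNA is broken. It lay between -0.33 and 0.18 in the cultured cells and between 0.038 and 0.072 in the tissue mix. In SS tumors it ran from 0.33 (tumor 24) to 1.43 (tumor 30), and in 12 of the 13 SS214 tumors it was at most 0.12, with tumor 9 at 0.48. Genes of skeletal muscle averaged 9.98 to 12.4 in the SS tumors and 8.86 to 12.8 in the SS214 tumors, against 5.22 to 5.34 in eMCs with the empty vector. The 2 measured lung markers averaged 7.17 to 10.3 in SS214 tumors 13 to 16 and at most 6.24 in the other SS214 tumors. The mesenchymal markers averaged 8.5 in eMCs with the empty vector, 8.28 in SS tumors and 6.9 in the tissue mix, although *Col1a2* was at the floor in every SS tumor. The 3 synovial sarcoma markers (*Tle1*, *Bcl2* and *Sox2*) averaged 9.04 in SS tumors, 8.78 in SS214 tumors and 8.9 in SS64 with NC, but 6.1 in SS40 with NC, where *Sox2* was near the floor (mean 3.57, against 10.7 in SS64).

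Each array was then placed by the mean of its 19 replication genes and the mean of its 20 mitosis genes, each gene taken relative to its mean in eMCs with the empty vector. The lines stood highest, the eMCs next, and every tumor below them. SS40 with NC lay at 1.03 to 1.11 by replication and 0.78 to 0.89 by mitosis, and SS64 with NC at 0.80 to 0.81 and 0.83 to 0.87. The eMCs expressing *SS18-SSX1* lay at 0.36 to 0.38 by replication and at 0.08 to 0.09 by mitosis. The tissue mix lay at -0.72 to -0.59 and -1.39 to -1.22. The SS214 tumors ran from -1.26 to -0.16 by replication and from -1.98 to -1.13 by mitosis, and the SS tumors from -1.73 to -0.68 and from -3.06 to -1.95. In 25 of 25 tumors the mitosis mean was lower than the replication mean. The same held on every array of the tissue mix, of the eMCs with *SS18-SSX1*, of SS40 and of SS64 with *miR-214*. Mitosis minus replication was -1.43 to -0.94 in SS tumors, -1.2 to -0.70 in SS214 tumors and -0.68 to -0.62 in the mix. In SS64 with NC it was 0.031 to 0.062. With NC, every SS40 array lay above every SS64 array by replication, while by mitosis the 2 lines overlapped.

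**Figure D1:**
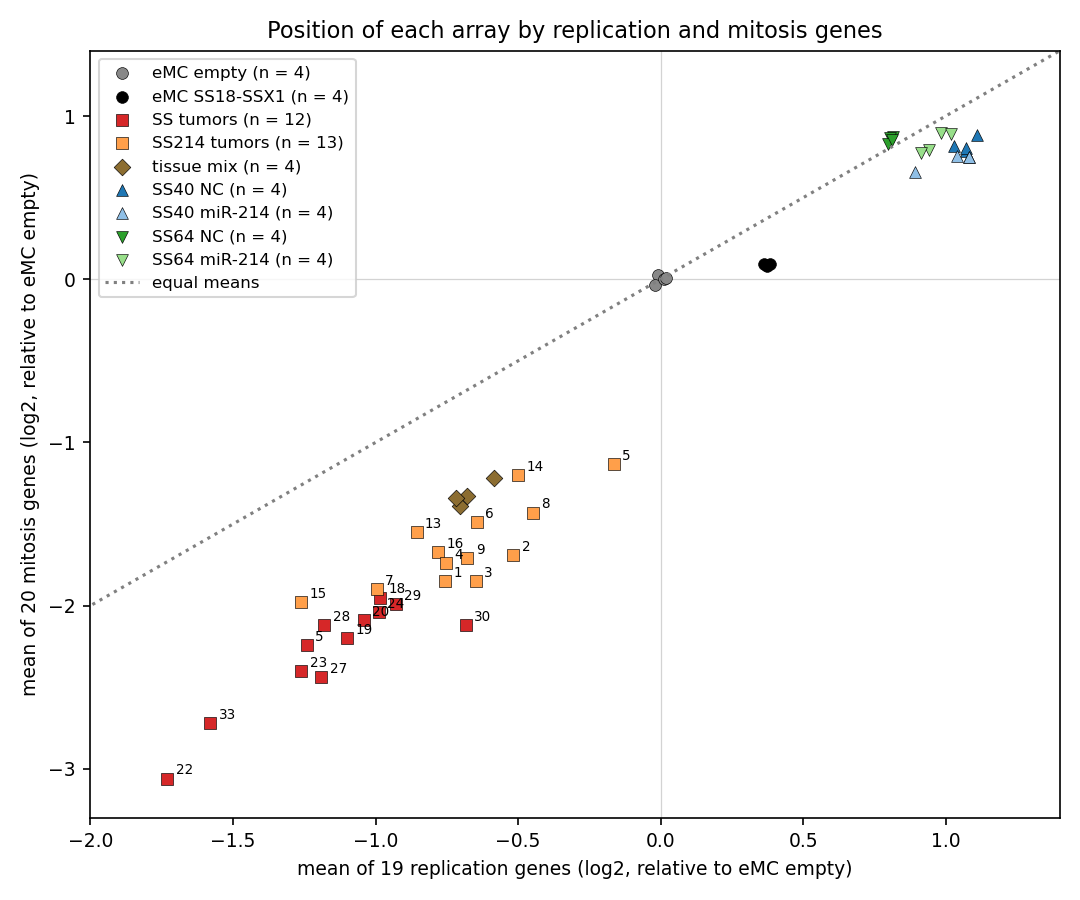
Mean difference from eMCs with the empty vector, in log2 units, over the 19 replication genes (horizontal axis) and the 20 mitosis genes (vertical axis), with 1 point for each of the 53 arrays, a color and shape for each group, the tumor numbers beside the tumors, and a dotted line where both means are equal. The 25 tumors lie at the lower left, with mitosis means between -3.06 and -1.13, and the lines lie at the upper right, with replication means between 0.80 and 1.11.

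*SS18-SSX1* in eMCs was followed at 48 h by small rises across the replication class. The cyclin E gene *Ccne2* rose from 7.65, 7.76, 7.88 and 7.93 in the 4 empty vector arrays to 8.61, 8.61, 8.67 and 8.55 in the 4 arrays with the fusion gene, a difference of 0.80 ± 0.055 (SE, n = 4 and 4, 1.75-fold, adjusted p = 1.04e-08, limma with Benjamini-Hochberg adjustment over all probe sets tested). Here and in what follows ± is the SE of the fitted difference. Every array with *SS18-SSX1* lay above every array without it. The licensing factor *Cdc6* rose from 6.39, 6.39, 6.54 and 6.52 to 7.16, 7.03, 7.17 and 7.18 (0.67 ± 0.061, 1.6-fold), again without overlap. In all, 18 of 19 replication genes rose and 1 fell, where 29.4% of all genes tested rose and 19.5% fell, and their median difference was 0.41 (1.33-fold) against -8.4e-05 over all genes tested. In 17 of the 19 every array with *SS18-SSX1* lay above every array without it (28.0% of all genes), and in 1 every array lay below (18.5%). None of the 39 members changed by more than 2-fold, where 2.73% of all genes rose and 0.92% fell by more than that.

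The rise covered each role within the replication class. All 6 helicase subunits rose, with a median of 0.41, from *Mcm6* at 0.21 ± 0.037 to *Mcm3* at 0.55 ± 0.061. *Mcm2* went from 8.24, 8.39, 8.30 and 8.28 to 8.80, 8.73, 8.75 and 8.70, and *Mcm5* from 7.52, 7.57, 7.62 and 7.61 to 7.98, 8.00, 7.90 and 8.10. These were similar steps of 0.44 and 0.41. The licensing genes *Cdc6* and *Cdt1* and the helicase partner *Gins1* rose with a median of 0.50, and the 5 genes of the clamp and the nucleotide supply with a median of 0.37. *Pcna*, the clamp, went from 11.33, 11.24, 11.23 and 11.23 to 11.68, 11.66, 11.68 and 11.66. Among the regulators, *E2f2* rose by 0.58 ± 0.087 and *Ccne1* from 7.16, 7.17, 7.27 and 7.23 to 7.70, 7.69, 7.62 and 7.52 (0.42 ± 0.052). *E2f1* was at 6.56, 6.52, 6.68 and 6.61 without the fusion gene and at 6.86, 6.94, 6.65 and 7.05 with it, and although it passed the test (0.29 ± 0.077, adjusted p = 0.00751, limma), the groups overlapped. The 1 gene that fell was *E2f8*, the repressor, from 7.73, 7.74, 7.63 and 7.79 to 7.50, 7.15, 7.36 and 7.23 (-0.41 ± 0.068, adjusted p = 0.000136, limma).

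The mitosis genes had a smaller median at the same time. Of 20, 13 rose and 2 fell, and the median was 0.13 (1.09-fold). With quantile normalization 8 mitosis genes were higher and 4 lower, and the share of all genes is not given for that fit. The largest rises were those of the checkpoint kinase *Bub1* (0.32 ± 0.041), the motor *Kif11* (0.26 ± 0.052) and *Aurkb* (0.26 ± 0.036), whose arrays went from 8.34, 8.42, 8.42 and 8.34 to 8.60, 8.64, 8.64 and 8.68. *Cdk1* rose from 10.78, 10.69, 10.61 and 10.62 to 10.80, 10.83, 10.87 and 10.78, by 0.15 ± 0.033. *Mki67* moved the other way, from 8.55, 8.58, 8.60 and 8.66 down to 8.42, 8.51, 8.46 and 8.44 (-0.14 ± 0.037, adjusted p = 0.00619, limma), and so did *Foxm1* (-0.29 ± 0.10, adjusted p = 0.0291). *Plk1*, *Mybl2*, *Bub1b*, *Tpx2* and *Cenpe* did not pass the test, with differences between -0.065 and 0.050. The other genes of the pathways were listed from general knowledge, but with earlier results of these data known. They are thus no independent check, here or below. Among them 20 of 22 replication genes were higher and 0 lower (*Chaf1b*, a histone chaperone of the fork, by 0.85 ± 0.077). Of 27 mitosis genes 12 were higher and 0 lower. Of 11 genes of the RB family, the other E2Fs and MuvB, 8 rose, among them the retinoblastoma gene *Rb1* (0.84 ± 0.054, 1.79-fold) and the MuvB gene *Lin54* (0.66 ± 0.048). Markers of other cells moved in the same comparison. All 7 endothelial markers rose (mean of the list 4.23 to 4.34 without and 6.3 to 6.35 with the fusion gene), as did all 5 granulocyte markers (5.96 to 6.08 and 8.49 to 8.6) and all 5 mast cell markers (4.29 to 4.4 and 7.03 to 7.16), and all 5 cartilage markers fell. Their part in the changes of the members was not tested. When all 53 arrays were fitted together, so that the spread of the tumors entered the error, only *Cdc6*, *Pcna* and *Mcm2* passed. The share of all genes that passed in that fit is not given here.

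**Figure D2:**
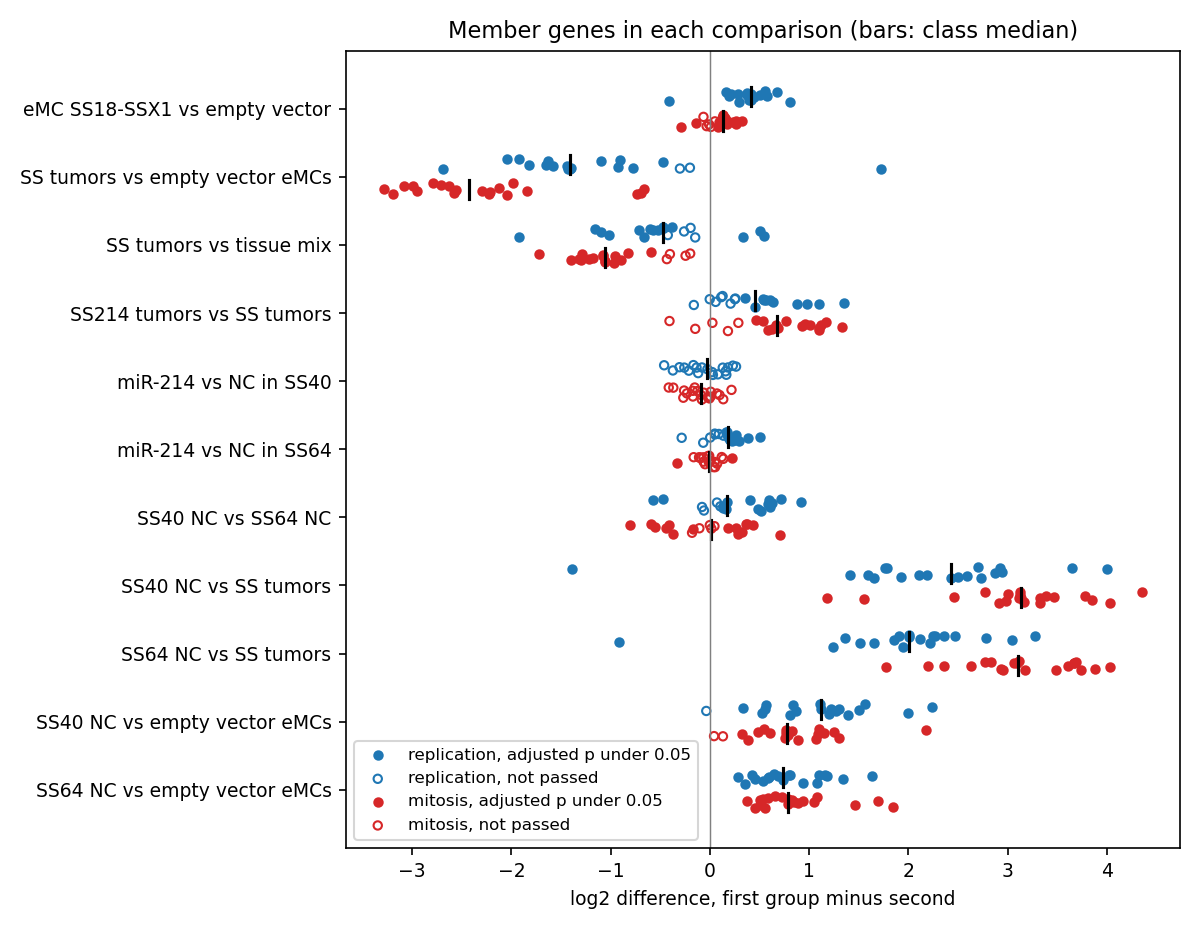
Differences in log2 intensity of the 39 members in each comparison, with 1 point for each gene, the replication and mitosis classes apart, a bar at the median of each class, and open points for genes that did not pass. In eMCs with *SS18-SSX1* the medians were 0.41 for replication and 0.13 for mitosis, and in SS tumors against eMCs with the empty vector they were -1.41 and -2.43.

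The lines stood above the eMCs in nearly every member. In SS40 with NC, 18 of 19 replication genes and 18 of 20 mitosis genes exceeded their level in empty vector eMCs and 0 lay below it (background 32.8% higher and 25.8% lower), with medians of 1.12 (2.18-fold) and 0.78 (1.71-fold) against 0.040 over all genes. *Cdc6* stood at 8.68, 8.71, 8.72 and 8.67 in the 4 SS40 arrays, 4.71-fold above the eMCs (2.24 ± 0.064). *Mcm5* stood at 9.48, 9.64, 9.58 and 9.63, 4.0-fold above (2.00 ± 0.056), and *Mcm2* at 10.04, 9.80, 9.82 and 9.79 (1.56 ± 0.064). The largest mitotic differences were those of *Mybl2*, the B-Myb gene (2.18 ± 0.12, 4.52-fold), the kinetochore motor *Cenpe* (1.30 ± 0.072) and *Bub1* (1.25 ± 0.058). *E2f8* (-0.037 ± 0.077), *Aurkb* (0.042 ± 0.055) and *Cdk1* (0.13 ± 0.075) did not pass.

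In SS64 with NC all 39 members exceeded their level in empty vector eMCs (background 34.9% higher and 26.1% lower), with medians of 0.74 (1.67-fold) for replication and 0.79 (1.73-fold) for mitosis against 0.039 over all genes. *Cdc6* led the replication genes here too (1.63 ± 0.065), before *Ccne2* (1.34 ± 0.060) and *E2f1*, which went from 6.56, 6.52, 6.68 and 6.61 in the eMCs to 7.79, 7.74, 7.78 and 7.78 in SS64 (1.18 ± 0.057). *Cenpe* (1.84 ± 0.050, 3.59-fold) and *Mki67* (1.69 ± 0.036, 3.23-fold) led the mitosis genes. *Mki67* stood at 10.31, 10.28, 10.28 and 10.29 in the 4 SS64 arrays. The 2 comparisons share their 4 control arrays. Medium and serum differ between the eMCs and the lines and cannot be told apart from the change of cell. The 5 cartilage markers averaged 11.1 in the eMCs, 4.29 in SS40 with NC and 4.04 in SS64 with NC, and their part was not tested.

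The SS tumors had less RNA of nearly every member than eMCs with the empty vector, which did not carry the fusion gene of the tumors and are the eMCs meant in this comparison. Of 20 mitosis genes, 20 were lower, with a median of -2.43 (5.39-fold), and of 19 replication genes 16 were lower and 1 was higher, with a median of -1.41 (2.66-fold), where 35.7% of all genes tested were lower and 32.6% higher and the median over all genes was -0.034. *Aurkb* lay from 3.87 to 5.78 with a median of 5.05 in the 12 tumors, against 8.34, 8.42, 8.42 and 8.34 in the eMCs, and was 9.75-fold lower (-3.28 ± 0.24, adjusted p = 2.45e-09, limma). *Aurka* (9.18-fold), the survivin gene *Birc5* (8.47-fold) and *Cdk1* (7.95-fold) followed. *Cdk1* ran from 6.92 to 7.98 with a median of 7.78, and no tumor came within 2 log2 units of the lowest eMC array at 10.61. In 19 of the 20 mitosis genes every tumor lay below every eMC array, as in 23.4% of all genes. The exception was *Mki67*, which ran from 7.54 to 8.56 with a median of 7.96 against 8.55 to 8.66, only 1.58-fold lower (-0.66 ± 0.15). Tumor 18 reached the level of the eMCs. In tumors, fewer dividing cells and less RNA of a gene in each cell cannot be told apart. A tumor holds cells of its host as well, and all 8 skeletal muscle markers were higher in the tumors than in the eMCs. The 5 cartilage markers averaged 11.1 in the eMCs and 4.94 in the tumors. The part of muscle and of cartilage cells in these differences was not tested.

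The replication genes differed from one another in the tumors. The salvage enzyme *Tk1* was 6.47-fold lower (-2.69 ± 0.21), running from 5.54 to 6.76 with a median of 6.24 against 8.91, 8.90, 8.83 and 8.91. *Rrm2* was 4.12-fold and *Ccne1* 3.8-fold lower, and *Ccne1* ran from 4.90 to 5.89 with a median of 5.25. The helicase genes differed within 1 complex. *Mcm6* was 2.65-fold lower, *Mcm7* 2.15-fold and *Mcm5* 1.9-fold, with *Mcm5* at 6.06 to 7.27 in the tumors, while *Mcm4* (-0.30 ± 0.17, adjusted p = 0.118, limma) and *Mcm2* (-0.20 ± 0.12, adjusted p = 0.167) did not pass. *Mcm2* ran from 7.70 to 8.69 with a median of 8.08, around the eMC arrays at 8.24 to 8.39. *Pcna* was 1.72-fold lower, running from 9.98 to 10.77 with a median of 10.50, and *E2f1* 1.39-fold lower, running from 5.71 to 6.59 with a median of 6.13 with some tumors among the eMC values.

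*E2f2* was the 1 member that was higher. It ran from 6.03 to 7.26 with a median of 6.51 in the 12 tumors, against 4.98, 4.95, 4.82 and 4.84 in the eMCs, so every tumor lay above every eMC array (1.72 ± 0.19, 3.3-fold, adjusted p = 3.26e-07, limma). Its level was 7.75, 7.91, 7.72 and 7.76 in the tissue mix, 5.32, 5.47, 5.15 and 4.96 in SS40 with NC and 5.70, 5.67, 5.82 and 5.62 in SS64 with NC, so the tumors and the mix stood above both lines with NC and the empty vector eMCs. *E2f2* is known for its role in red cell development. Markers of the marrow and of red cell precursors averaged 4.2 to 5.26 in the SS tumors, 4.27 to 4.42 in the eMCs and 8.64 to 8.73 in the tissue mix, and *Rhag* was at the floor in all SS tumors and in the eMCs with the empty vector. Their part in the level of *E2f2* was not tested. The other pathway genes were lower too, 21 of 22 for replication and 27 of 27 for mitosis, and the 1 exception was *Cdc7*, a kinase that helps to fire origins, which was 3.6-fold higher (1.85 ± 0.16). *Rbl2*, which codes for the p130 protein of the repressive DREAM complex, was 4.47-fold higher (2.16 ± 0.081), and the repressor *E2f7* was 2.87-fold lower. The 3′ to 5′ ratio of *Gapdh* was taken as a covariate in an alternative added after seeing the data. Again 36 members were lower and 1 higher, where 24.9% of all genes were lower and 26.0% higher. The ratio of the tumors did not overlap that of these eMCs, so this fit rests on the slope within the groups.

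Against the mix of normal tissues, the SS tumors were lower in most mitosis genes and divided in the replication genes. Of 20 mitosis genes 16 were lower and 0 higher, with a median of -1.06 (2.08-fold), and of 19 replication genes 11 were lower and 3 higher, with a median of -0.47 (27.2% of all genes were lower and 36.1% higher, median 0.065). *Mki67* differed most in its class. It stood at 9.52, 9.69, 9.70 and 9.73 in the 4 arrays of the mix, above every tumor, and was 3.3-fold lower in the tumors (-1.72 ± 0.15, adjusted p = 1.59e-08, limma). *Birc5* (2.65-fold) and *Aurka* (2.5-fold) came next. *Cdk1* stood at 8.64, 8.85, 8.77 and 8.78 and *Aurkb* at 6.22, 6.24, 6.26 and 5.99 in the mix, 2.11-fold and 2.12-fold above the tumors. *Bub1*, *Melk*, *Ttk* and *Foxm1* did not pass, with differences between -0.43 and -0.20.

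Among the replication genes, *E2f8* (3.79-fold), *E2f2* (2.24-fold) and *Tk1* (2.14-fold) were lowest in the tumors relative to the mix. *E2f1* (0.55 ± 0.15), *Mcm4* (0.50 ± 0.17) and *Mcm2* (0.34 ± 0.13, adjusted p = 0.0327, limma) were higher, although the groups overlapped in all of them. *Mcm2* stood at 7.83, 7.86, 7.72 and 7.66 in the mix and *E2f1* at 5.41, 5.72, 5.64 and 5.50. *Mcm5* was at 7.42, 7.23, 7.53 and 7.31 and was lower in the tumors (-0.72 ± 0.18). With the *Gapdh* ratio as a covariate none of the 3 higher calls remained and 23 members were lower, 9 for replication and 14 for mitosis. In that fit 24.0% of all genes were lower and 30.3% higher. The ratio of the tumors did not overlap that of the mix, so this fit too rests on the slope within the groups. All 5 granulocyte markers and all 6 measured marrow markers were lower in the tumors than in the mix, which holds marrow and gut, and their part in these differences was not tested. Of the other pathway genes, 5 of 22 for replication were higher and 6 lower, and 0 of 27 for mitosis were higher and 22 lower.

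The lines exceeded the SS tumors in every member except *E2f2*. In SS40 with NC 38 of 39 members were higher and 1 lower (39.3% and 31.9% of all genes), with medians of 2.43 (5.38-fold) for replication and 3.13 (8.77-fold) for mitosis, and in SS64 with NC 38 were higher and 1 lower (39.0% and 31.7%), with medians of 2.01 (4.02-fold) and 3.10 (8.58-fold). The medians over all genes were 0.068 and 0.064. These 2 comparisons share the 12 tumors. All 8 skeletal muscle markers were lower in each line, with a mean of 4.64 in both against 11.5 in the tumors, and their part in these differences was not tested. The *Gapdh* ratio averaged -0.049 in SS40, -0.18 in SS64 and 0.85 in the tumors. With it as a covariate 38 members were again higher and 1 lower in each line (background 28.3% and 24.6% for SS40, 24.6% and 22.6% for SS64). In neither line did the ratio overlap that of the tumors. This fit therefore rests on the slope within the groups and cannot tell RNA quality apart from the group. *Aurka* stood at 9.68, 9.67, 9.75 and 9.80 in SS40 and at 9.43, 9.44, 9.36 and 9.37 in SS64, and ran from 4.14 to 5.96 with a median of 5.54 in the tumors. It was 20.4-fold higher in SS40 (4.35 ± 0.26) and 16.3-fold in SS64 (4.03 ± 0.26). After it came *Bub1* (16.4-fold) and *Tk1* (16.0-fold) in SS40 and *Tpx2*, a spindle assembly factor (14.8-fold), and *Aurkb* (13.3-fold) in SS64. *Tk1* stood at 10.12, 10.18, 10.15 and 10.32 in SS40 and at 9.50, 9.47, 9.41 and 9.53 in SS64. The smallest differences were those of *Foxm1* (2.27-fold) in SS40 and *Mcm4* (2.36-fold) in SS64. For all members but *E2f2*, no tumor reached a line, which held for 25.7% of all genes in SS40 and 26.3% in SS64. *E2f2* was lower by 1.39 ± 0.19 in SS40 and by 0.92 ± 0.19 in SS64, lay below every tumor in both (24.2% and 25.1% of all genes), and in this it opposed the other activator, *E2f1* (1.59 ± 0.15 and 1.66 ± 0.14).

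**Figure D3:**
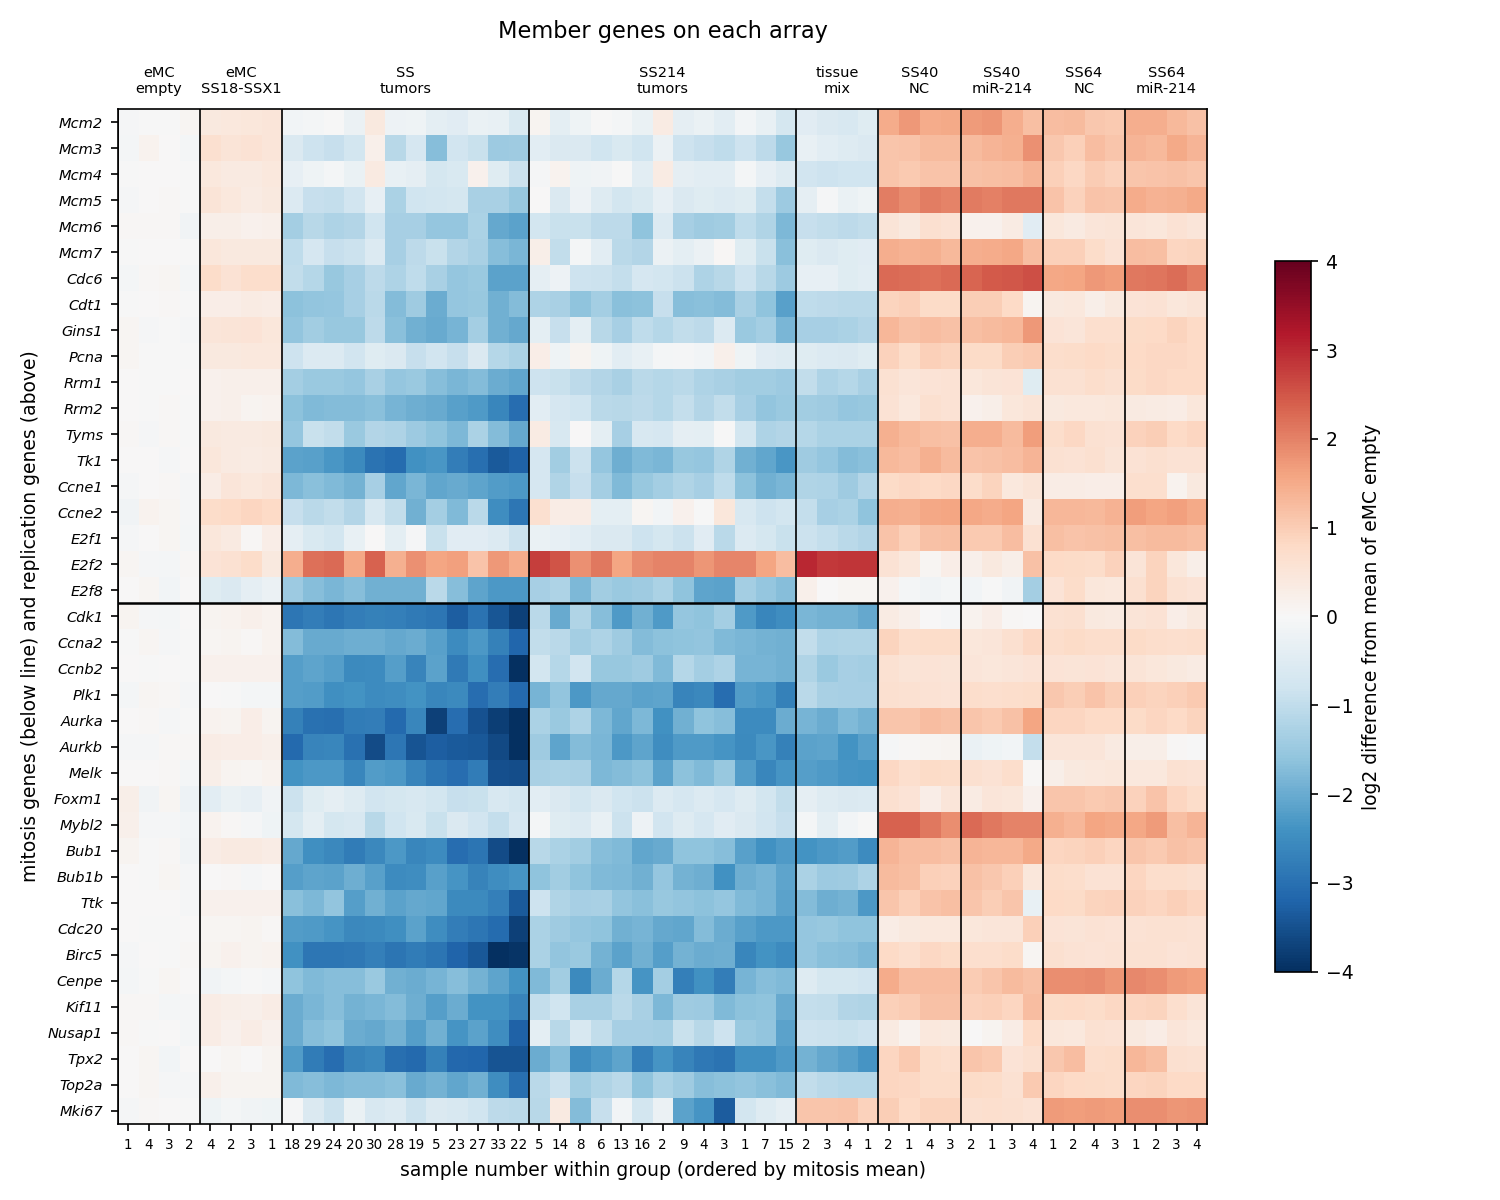
Log2 difference of each of the 39 members on each of the 53 arrays from its mean in eMCs with the empty vector (color), with the replication genes above the line, the mitosis genes below it, and the arrays of each group ordered by their mitosis mean. The tumor columns are below 0 in nearly all rows and the line columns above 0 in nearly all, and *E2f2* is above 0 in every tumor.

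The tumors differed from one another. The 2 classes placed the SS tumors in much the same order, but several SS214 tumors changed place. Among the SS tumors, tumor 22 was lowest by both means (-1.73 by replication and -3.06 by mitosis) and tumor 33 was next (-1.58 and -2.72). Tumor 30 was highest by replication (-0.68) and number 5 by mitosis (-2.12), and tumor 18 was highest by mitosis (-1.95) and number 3 by replication (-0.985). Tumors 18, 24 and 29 were among the 4 highest by both means. The gap between the 2 means was widest in tumor 30 (-1.43), which also had the highest 3′ to 5′ ratio, and narrowest in tumor 28 (-0.94). Tumor 18, with a ratio of 1.34, had a gap of -0.964, and tumor 27, with a ratio of 0.45, had a gap of -1.25. The part of the ratio in the gap was not tested. Muscle markers averaged least in tumors 24 (9.98), 29 (10.1) and 30 (10.3), which ranked among the 4 highest by replication, and 12.2 and 12.3 in tumors 33 and 22, which ranked lowest. Tumor 18, with muscle markers at 12.4, was also among the 4 highest. Their part in the order was not tested.

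Tumor 22 was the lowest of the 12 in 27 of the 39 members. Its *Cdk1* was 6.92, its *Aurkb* 3.87, its *Mcm2* 7.70 and its *Pcna* 9.98, each the lowest of the group. Tumor 30 was the highest in 17 members, among them all 6 helicase genes, with *Cdk1* (7.98), *Mcm2* (8.69), *Mcm5* (7.27), *Ccne1* (5.89) and *E2f2* (7.26). Among the SS214 tumors, tumor 5 was highest by both means (-0.16 and -1.13), followed by tumor 8 by replication (-0.45) and tumor 14 by mitosis (-1.20). Tumors 5, 8 and 14 were among the 4 highest by both. Tumor 15 was lowest by both (-1.26 and -1.98), with tumor 7 next (-0.996 and -1.90). Others changed place, with tumor 13 number 11 by replication and number 5 by mitosis, tumor 16 number 10 and 6, and tumor 2 number 4 and 7. Muscle markers averaged 12.8 in tumor 15 and 12.5 in tumor 7, and 11.5 in tumor 5. They were least in tumor 9 (8.86), number 7 by replication and 8 by mitosis, and in tumor 3 (9.64), number 6 and 11.

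The SS214 tumors had more RNA of many members than the SS tumors. Of 19 replication genes 11 were higher and 0 lower, with a median of 0.45 (1.37-fold), and of 20 mitosis genes 15 were higher and 0 lower, with a median of 0.68 (1.60-fold), where 22.6% of all genes were higher and 17.3% lower and the median over all genes was 0.042. *Aurka* ran from 6.05 to 7.33 with a median of 6.76 in the 13 SS214 tumors and from 4.14 to 5.96 with a median of 5.54 in the 12 SS tumors, a difference of 1.33 ± 0.19 (2.51-fold, adjusted p = 9.91e-06, limma). *Cdk1* ran from 8.08 to 9.60 with a median of 8.75 (1.12 ± 0.16, 2.17-fold), and *Ccnb2*, which codes for cyclin B2, from 7.66 to 8.85 with a median of 8.16 (1.17 ± 0.18, 2.25-fold). In these 3 mitosis genes and in *Rrm2* (0.98 ± 0.14) every SS214 tumor lay above every SS tumor, as in 0.742% of all genes. Placed by the mean of the mitosis genes, 12 of the 13 SS214 tumors lay above every SS tumor, and by the replication genes 7 did. *Aurkb* ran from 5.68 to 6.96 with a median of 6.10 (1.10 ± 0.17), with overlap.

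In the replication class *Ccne2*, *Tk1*, *Rrm2* and *Tyms* differed most. *Ccne2* ran from 6.98 to 8.46 with a median of 7.80, against from 4.90 to 7.15 with a median of 6.68 in the SS tumors (1.35 ± 0.22, 2.56-fold), *Ccne1* from 5.30 to 6.54 with a median of 5.86 (0.56 ± 0.13) and *Tk1* from 6.56 to 8.22 with a median of 7.33 (1.10 ± 0.18, 2.15-fold). All 5 genes of the clamp and the nucleotide supply were higher, *Pcna* among them, which ran from 10.75 to 11.51 with a median of 11.09 (0.63 ± 0.10). The helicase and the E2F genes differed less. *Mcm7* (0.53 ± 0.18) and *Mcm5* (0.35 ± 0.14, adjusted p = 0.0495, limma), which ran from 6.11 to 7.60 with a median of 7.03, passed. *Mcm2* ran from 7.59 to 8.62 with a median of 8.05 and did not differ detectably (-0.0021 ± 0.10), and neither did *Mcm3*, *Mcm4*, *Mcm6*, *Cdt1*, *E2f2*, *E2f8* or *E2f1*, which ran from 5.51 to 6.34 with a median of 6.02 (-0.16 ± 0.11). Of the mitosis genes, *Mki67* (-0.41 ± 0.30, adjusted p = 0.283, limma), *Cenpe* (-0.15 ± 0.16), *Foxm1* (0.025 ± 0.071), *Mybl2* (0.18 ± 0.086) and *Plk1* (0.29 ± 0.14) did not pass. The other pathway genes gave 15 of 22 higher for replication and 20 of 27 for mitosis, with 0 lower in either. The largest were *Ube2c* (2.5-fold), an enzyme that marks cyclin B for destruction, and *Rfc4*, a clamp loader gene (2.28-fold).

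RNA quality divided the same 2 groups. The 3′ to 5′ ratio of *Gapdh* was 0.33 to 1.43 in SS tumors and at most 0.12 in SS214 tumors other than tumor 9 (0.48). When the fit took this ratio into account, an alternative added with the values known, only *Rrm1*, *Rrm2*, *Birc5*, *Aurka* and *Cdk1* were called higher, 5 of 39 where 2.51% of all genes were, and 0 lower. The median differences were then 0.60 for replication and 0.68 for mitosis, and 19 of 19 and 17 of 20 of the differences were above 0. The median and the signs over all genes in this fit are not given here, so these values cannot be set against a general shift. The ratios of the groups overlapped only through SS214 tumor 9, so this fit rests mainly on the slope within the groups. Markers of blood cells divided the groups as well, with 5 of 5 granulocyte, 3 of 6 macrophage and 4 of 6 marrow markers higher in SS214 tumors (granulocyte mean 5.51 to 11.5, against 4.23 to 9.51), and their part was not tested. Without SS214 tumors 13 to 16, which are high in lung genes, a choice made after seeing the data, 26 members were higher (23.1% of all genes) and *Mki67* was lower (-0.79, adjusted p = 0.0324, limma).

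**Figure D4:**
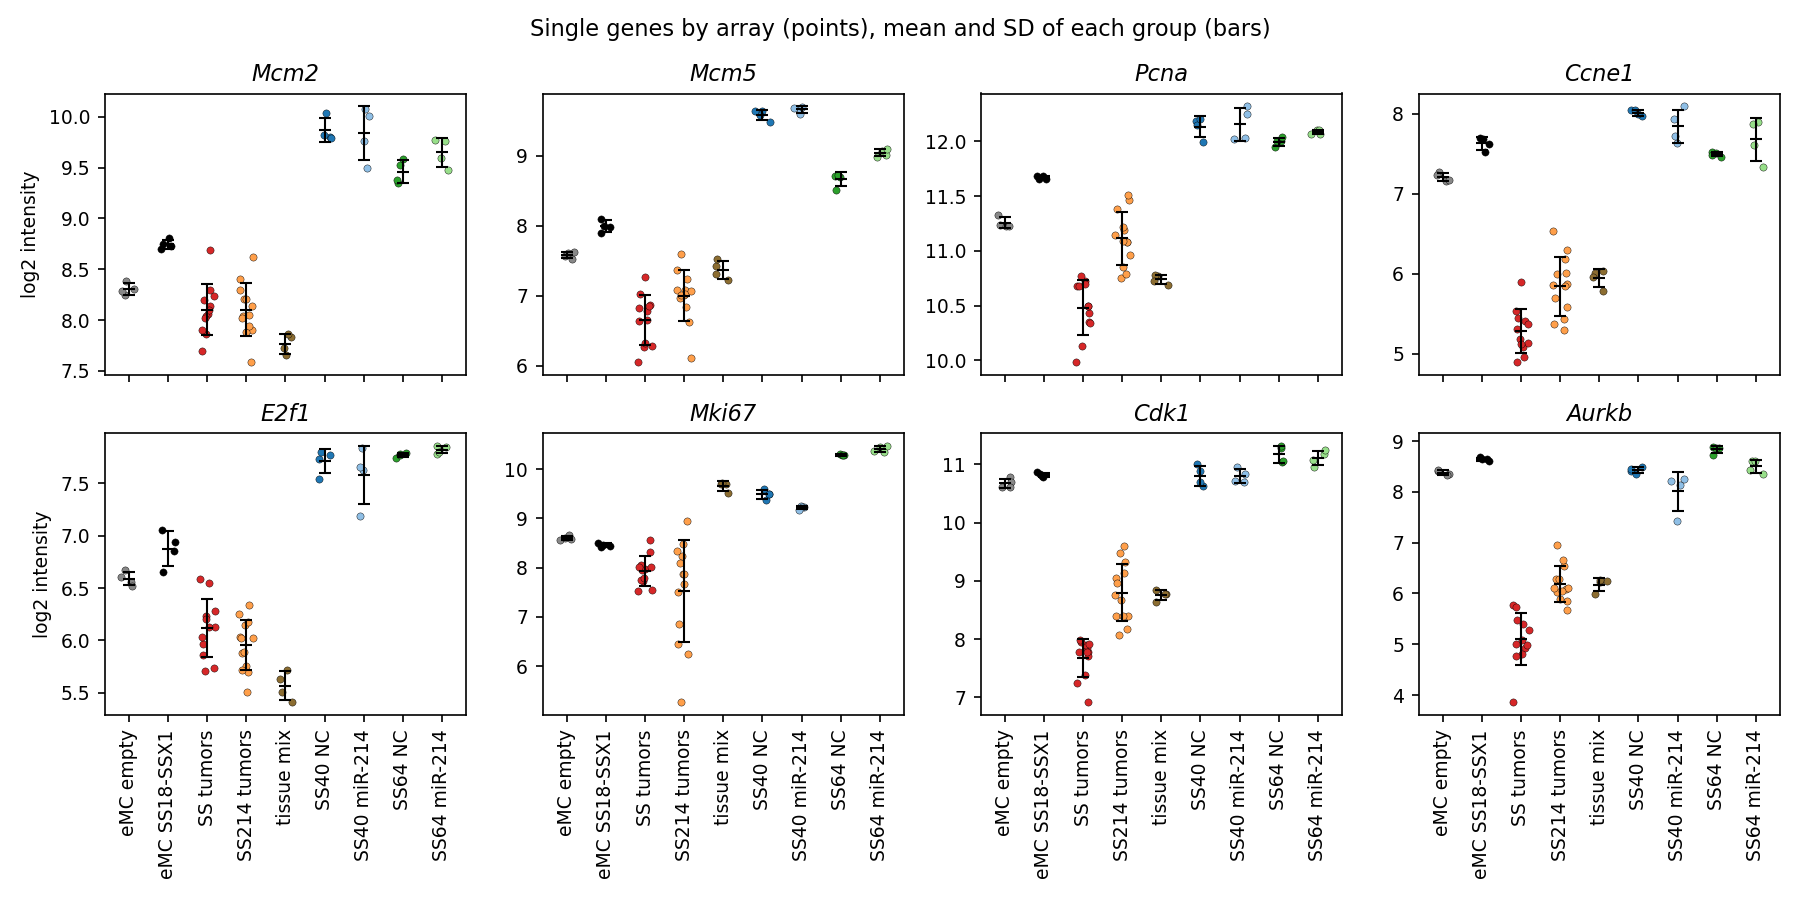
Log2 intensity of *Mki67*, *Cdk1*, *Aurkb*, *Mcm2*, *Mcm5*, *Pcna*, *Ccne1* and *E2f1* in every array, by group, with bars for the mean and SD of each group (n = 4, 12 or 13). *Cdk1* lies at 10.6 to 10.8 in the empty vector eMCs and at 6.92 to 7.98 in the SS tumors, whereas *Mcm2* in the SS tumors (7.70 to 8.69) spans the eMC values, and *Mki67* has its widest spread in the SS214 tumors (5.28 to 8.96).

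*Mki67* was low in some SS214 tumors in which *Cdk1* was high. Its SD was 1.04 over the 13 tumors, against 0.30 over the 12 SS tumors. It was lowest in tumors 3 (5.28), 4 (6.24), 9 (6.46) and 8 (6.85), below every SS tumor. *Cdk1* in the same 4 tumors was 9.32, 9.05, 9.13 and 9.47, and all 4 were among the 5 highest of the group, with tumor 5 at 9.60. Tumor 14 had the highest *Mki67* (8.96) with *Cdk1* at 8.67, and tumors 13 and 15, with *Mki67* at 8.48 and 8.24, had *Cdk1* at 8.40 and 8.18. In the 12 SS tumors tumor 22 was lowest in both genes, and tumor 18 was highest in *Mki67* with *Cdk1* at 7.78, near the middle of the group. *Cenpe* was lowest in the same 4 tumors, at 4.75, 5.09, 4.78 and 4.96 in the order above. A single probe set with 1 symbol measured *Mki67* on these arrays. The 3′ to 5′ ratio in tumors 3, 4 and 8 was 0.0084, 0.076 and -0.045, and that of tumor 9 was 0.48, the highest of the group.

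**Figure D5:**
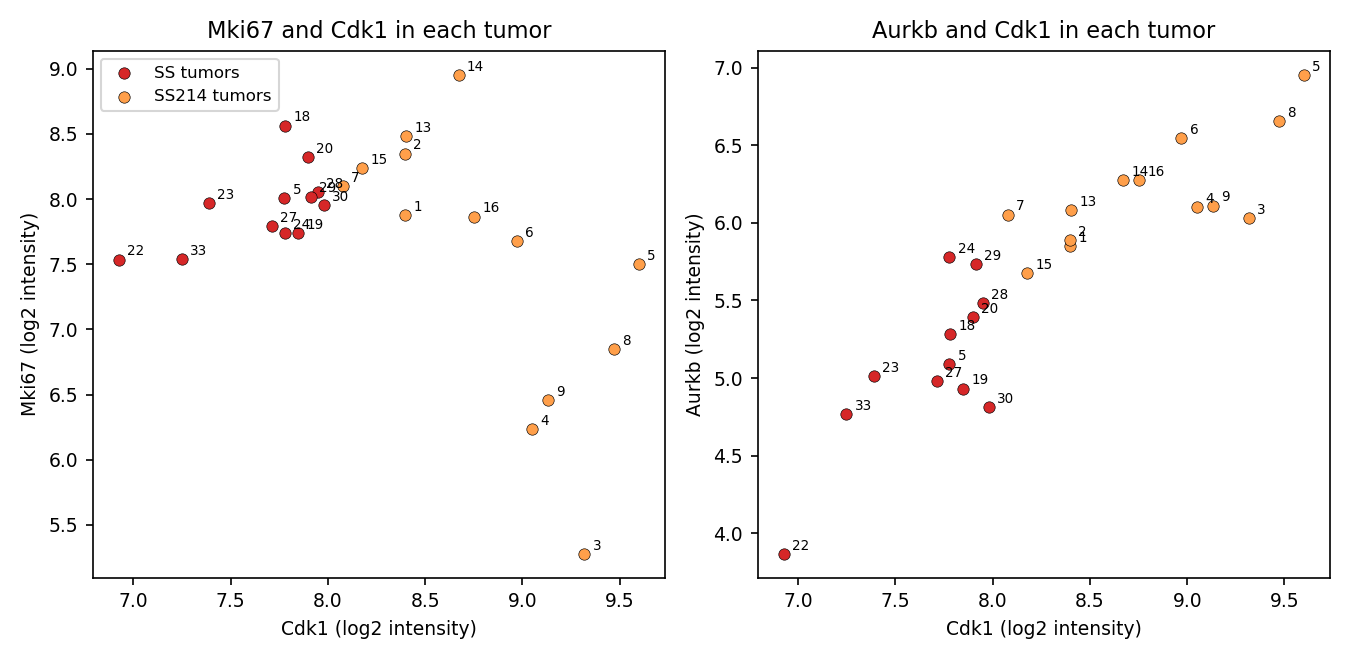
*Mki67* (left panel) and *Aurkb* (right panel) on the vertical axis against *Cdk1* on the horizontal axis, all as log2 intensity, with 1 point for each SS and SS214 tumor and its number beside it. On the left SS214 tumors 3, 4, 9 and 8 lie at the lower right, with *Mki67* at 5.28 to 6.85 and *Cdk1* at 9.05 to 9.47. On the right the same tumors have *Aurkb* at 6.03 to 6.66, above every SS tumor, as has every other SS214 tumor except tumor 15 (5.68).

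With *miR-214* no member passed the test in SS40, and some replication genes rose by small amounts in SS64. In SS40, 0 of 39 members passed in either direction by limma (5 had an unadjusted p under 0.05, and the methods' t-test after adjustment also called 0), where 0.24% of all genes were higher and 0.79% lower. The medians were -0.026 for replication and -0.087 for mitosis, against -0.014 over all genes. The SE of a member's difference ran from 0.062 (*Mcm4*) to 0.28 (*Ttk*) in SS40, against 0.026 (*Pcna*) to 0.17 (*Tpx2*) in SS64. Changes could thus be missed in SS40. In simulated data with the spread of these arrays, the fit found 19 of 67 changes of 1.5-fold and 44 of 67 of 2-fold for SS40. For SS64 it found 52 of 67 and 66 of 67. *Mki67* was 9.38, 9.59, 9.50 and 9.49 with NC and 9.26, 9.23, 9.24 and 9.17 with *miR-214*, without overlap (-0.27 ± 0.077, adjusted p = 0.228, limma). *Mcm5* was 9.48, 9.64, 9.58 and 9.63 with NC and 9.60, 9.67, 9.70 and 9.68 with *miR-214* (0.080 ± 0.073), and these overlapped. Replicate 4 with *miR-214* stood apart in several members, with *Aurkb* at 7.43 against 8.13 or more in its group, *E2f8* at 6.35 against 7.58 or more, and *Ccne2* at 8.16 against 9.28 or more.

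In SS64, 8 of 19 replication genes rose with *miR-214* and 0 fell, and their median difference was 0.18 (1.14-fold). Of 20 mitosis genes 1 rose and 1 fell around a median of -0.0085 (4.9% of all genes rose and 8.02% fell, median -0.0096). *Cdc6* rose from 8.00, 8.04, 8.13 and 8.19 to 8.58, 8.60, 8.69 and 8.52 (0.51 ± 0.060, 1.42-fold, adjusted p = 0.000248, limma), and *Mcm5* from 8.71, 8.51, 8.69 and 8.73 to 9.07, 8.98, 9.02 and 9.09 (0.38 ± 0.057, 1.3-fold), both without overlap. *Mcm3*, *Mcm4*, *Ccne2*, *Gins1*, *Rrm1* and *Cdt1* rose by 0.17 to 0.30. *Cdc6* and *Cdt1* of licensing, *Gins1* and 3 of the 6 helicase genes were thus among those that rose. The mitosis genes that passed were *Bub1*, which rose (0.22 ± 0.039), and *Aurkb*, which fell from 8.87, 8.88, 8.74 and 8.86 to 8.61, 8.62, 8.43 and 8.36 (-0.33 ± 0.066, adjusted p = 0.00769, limma). With the replicate number as a block, since same-numbered arrays deviated together in SS64, 14 members rose and 1 fell. The block added *Mcm2*, *Mcm7*, *Pcna*, *Tyms* and *Mki67*. The share of all genes that passed with the block is not given here, so this gain cannot be set against a general gain in calls. In 1 fit of all arrays 0 passed. *Mki67* was 10.31, 10.28, 10.28 and 10.29 with NC and 10.45, 10.47, 10.35 and 10.38 with *miR-214* (0.12 ± 0.036). Of the other pathway genes in SS64, 8 of 22 for replication rose and 0 fell, with *Pola1*, a polymerase alpha gene, leading at 0.82 ± 0.046, and 2 of 27 for mitosis rose and 6 fell.

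The response to *miR-214* differed between the lines in 1 of 39 members by the test of the difference itself. *Mki67* gave -0.39 ± 0.075 (SS40 minus SS64, adjusted p = 0.0213, limma, where 0.404% of all genes passed in this direction and 0.468% in the other), from -0.27 in SS40 and 0.12 in SS64. With the replicate block it did not pass (adjusted p = 0.0886), and it was lost when SS40 NC replicate 3 or 4, SS64 *miR-214* replicate 1 or 2, or SS64 NC replicate 2, 3 or 4 was left out (adjusted p between 0.00806 and 0.0611 over all arrays left out in turn). *Cdc6* (-0.28 ± 0.10) and *Mcm5* (-0.30 ± 0.088, adjusted p = 0.212, limma) did not pass, so the rises seen in SS64 were not shown to differ from the values in SS40.

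The 2 lines with NC differed in the balance between the classes. Relative to SS64, SS40 was higher in 13 replication genes and lower in 2, with a median of 0.17 (1.12-fold), and it was higher in 8 mitosis genes and lower in 7, with a median of 0.0066 (26.4% of all genes were higher and 22.1% lower, median 0.020). None of these differences exceeded 2-fold, where 6.02% of all genes were higher and 6.34% lower by more than that. *Mcm5* was 9.48, 9.64, 9.58 and 9.63 in SS40 and 8.71, 8.51, 8.69 and 8.73 in SS64 (0.92 ± 0.064, 1.89-fold, adjusted p = 5.52e-07, limma), and *Tk1* (0.72 ± 0.055), *Gins1* (0.63 ± 0.065) and *Cdc6* (0.61 ± 0.060) followed. *Cdt1* was higher in SS40 too. *E2f8* (-0.57 ± 0.091) and *E2f2* (-0.48 ± 0.12) were lower there, and *E2f1*, at 7.54, 7.73, 7.80 and 7.77 in SS40 and 7.79, 7.74, 7.78 and 7.78 in SS64, did not pass (-0.060 ± 0.071).

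*Mki67* led the mitosis genes that were lower in SS40, with 9.38, 9.59, 9.50 and 9.49 in SS40 and 10.31, 10.28, 10.28 and 10.29 in SS64 (-0.80 ± 0.050, 1.74-fold, adjusted p = 2.11e-07, limma). *Foxm1* (-0.59 ± 0.092), *Cenpe* (-0.55 ± 0.068), *Plk1*, *Aurkb*, *Cdk1* and *Cdc20* were lower with it. *Cdk1* was 10.89, 11.00, 10.63 and 10.70 in SS40 and 11.28, 11.31, 11.04 and 11.06 in SS64. *Mybl2* (0.71 ± 0.12), *Bub1b* (0.43 ± 0.085) and *Melk* (0.38 ± 0.063) were the most raised mitosis genes of SS40. In this way the transcription factors of the mitotic program went apart, with *Mybl2* higher and *Foxm1* lower in SS40. Outside the module *Rb1* was 4.45-fold lower in SS40 (-2.15 ± 0.079), and against empty vector eMCs it was 2.43-fold lower in SS40 and 1.84-fold higher in SS64. The GINS gene *Gins2* was 2.87-fold higher and the central spindle gene *Prc1* 2.51-fold lower in SS40. In 1 fit of all arrays 10 members were higher and 3 lower between the lines. The share of all genes that passed in that fit is not given here, so these counts cannot be set against it.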

How the data were processed

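RNA of 53 samples was hybridized to mouse GeneChip arrays, and the deposited table gives 1 intensity for each of 45141 probe sets, in linear units as deposited (5.36 to 11034). The notes of the submitters name MAS5 and the methods name GeneSpring, and the table itself does not settle which summary the authors used. The array medians lay between 22.6 and 26.9, so no further scaling was applied. No columns of other samples were present. For arrays the number of probe sets and arrays, and not a read depth, limits the precision.

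Control probe sets (104) were left out. Symbols came from the platform annotation, updated by gene ID for 28689 probe sets, and 28898 probe sets had 1 symbol, 551 had several and the rest had none. A floor was set at the median over arrays of the 20th percentile (11.7) and log2 was taken. A probe set was kept when 4 or more of the arrays compared exceeded this floor. The 2 groups concerned were then fitted by limma 3.58.1 (R 4.3.3, lmFit and eBayes with trend), with Benjamini-Hochberg adjustment over all probe sets tested and a threshold of 0.05. Python 3.11.15, pandas 2.3.3 and matplotlib 3.10.9 did the rest. A gene was read from its brightest probe set by the mean over all arrays. Percentages of all genes are over the same kind of probe sets. The fitting script was tested on simulated data.

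The 40 members and all other lists were chosen with earlier results of these data known. Any member could be named. *Mki67*, *Cdk1*, *Aurkb*, *Mcm2*, *Mcm5*, *Pcna*, *Ccne1* and *E2f1* were given by sample, and beside them the 3 largest changes that passed in each class and the members that moved against their class. Alternatives were quantile normalization, a floor at the 40th percentile, no floor filter, the mean over probe sets, 1 fit of all arrays, the methods' t-test, a replicate block and leaving out each array of the groups of 4. Same-numbered arrays of the 2 groups deviated together in SS64 (correlations of deviations 0.221 to 0.346 over probe sets). The best match there was not always the array of the same number. The correlations were lower or mixed between eMCs (0.0113 to 0.153), in SS40 (-0.282 to 0.464) and between the lines (-0.221 to 0.358). The main fits took no pairs, and the replicate block was an alternative in each of these comparisons.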

Additional observations from a re-analysis of the deposited data

Results flagged for a closer look

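Among 70 checks of groups of 4 arrays, 7 had 1 array whose gap to the nearest other exceeded the 95% critical share of the group's range (0.829), where chance gives about 1 in 20. *Pcna* in empty vector replicate 1 was 11.3. In the tissue mix *Mki67* was 9.52 in replicate 1 and *Aurkb* was 5.99 in replicate 4. *Mcm2* was 10.0 in SS40 NC replicate 1, and *Aurkb* was 8.73 in SS64 NC replicate 3. In SS40 with *miR-214*, replicate 4 had *Aurkb* at 7.43 and the lowest mean of the mitosis genes, 0.655 above eMCs with the empty vector. Leaving out this array left the count of members that passed in SS40 at 0.

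The response of *Mki67* to *miR-214* differed between the lines by the interaction test (SS40 minus SS64, -0.387, adjusted p = 0.0213, limma), with a difference of -0.27 in SS40 and 0.12 in SS64. It did not pass with the replicate block (adjusted p = 0.0886), in 1 fit of all arrays (adjusted p = 1.0), or without any 1 of SS40 NC replicates 3 and 4, SS64 *miR-214* replicates 1 and 2 and SS64 NC replicates 2, 3 and 4 (adjusted p 0.0533 to 0.0611).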

How the results depend on the processing

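Over all settings, 307 recomputed counts of members stayed within 1.5 times the reported count, 18 fell below and 4 rose above that range, and no called difference of a member changed sign. One fit of all arrays, in which tumors set the spread, gave 3 higher and 0 lower for eMCs with *SS18-SSX1*, 0 and 0 for *miR-214* in SS64, 10 and 3 for SS40 against SS64, and 0 for the difference in response. Quantile normalization gave 5 lower in the eMCs. The ratio of *Gapdh* as a covariate, added after seeing the data, gave 0 higher against the tissue mix and 5 higher in SS214 tumors, and without SS214 tumors 13 to 16, also added, 1 was lower there. The methods' t-test gave 0 lower for *miR-214* in SS64. The replicate block gave 14 higher there and 0 for the difference in response, and changed no other count by more than 1.5 times. With 1 array left out, the counts ran from 1 to 2 lower for *miR-214* in SS64 (2 without *miR-214* replicate 2) and from 0 to 1 for the difference in response. For the other comparisons they ran from 29 to 31 higher and 2 to 3 lower in eMCs, and from 2 to 3 higher and 25 to 26 lower against the mix. Shares of all genes are given above for the fits with the *Gapdh* ratio and without SS214 tumors 13 to 16, but not for the other alternatives. Other probe sets of the members, in 318 pairs, gave the same call in 204 and an opposite call in 0. Arrays of 1 line or 1 culture limit what the small p-values cover, and values close to the floor understate differences.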
